A study of Mus musculus with 69 samples.

Results

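The data were 4 mRNA-seq libraries that compared the transcriptome of Mut18, a mouse embryonic stem cell (ESC) clone with mutated histone H3.3, with that of its parental WT line. They are 2 Mut18 and 2 WT libraries of 69 samples in the series. Both lines are J1 cells, a male ESC line of strain 129S4/SvJae derived from the inner cell mass of the blastocyst, and neither was treated. In Mut18, labelled H3.3K27R #18, all alleles of H3f3a and H3f3b had been edited by CRISPR-Cas9 so that lysine 27 of H3.3 became arginine, and WT cells carried no edit. Both lines were grown on feeder cells and then passaged 2 times without them before RNA was taken. Mut18 is 1 clone, so the effect of the mutation and the history of the clone cannot be told apart in this comparison. A second clone, Mut43 (H3.3K27R #43, 2 libraries), entered the fit to share the estimate of the spread and is cited only where it is named. The replicates are biological duplicates per the study. Each p-value thus rests on the spread between cultures within a line, pooled over WT, Mut18 and Mut43, and not on a spread between clones.

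H3.3 is the histone H3 variant that is placed on DNA outside replication, at active genes, enhancers and repeats. Acetylation of its lysine 27 marks active enhancers and promoters, whereas methylation of the same residue marks genes silenced by Polycomb. Arginine at this place can carry neither of these lysine marks. ESCs sit between a naive state, which resembles the blastocyst, and a primed state, which resembles the epiblast after implantation, and genes of both states are the usual readout of such a change.

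The edited residue lies in the following stretch of the 2 coding sequences in the reference, shown because the edit at this codon defines the clone. Capitals mark the codon of lysine 27, numbered without the start methionine. It lies at chr1:180811843-180811845 for H3f3a and at chr11:116023926-116023928 for H3f3b, both on the minus strand of GRCm38.
H3f3a: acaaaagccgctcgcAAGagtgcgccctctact
H3f3b: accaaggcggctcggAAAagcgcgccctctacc
Both genes encode the same H3.3 protein and stayed expressed in Mut18. H3f3a had 10509.7 and 10937 in WT and 9559.9 and 9159.9 in Mut18 (log2 fold change -0.20, SE 0.047, edgeR adjusted p = 0.00133), so that both Mut18 libraries lay just below both WT libraries. H3f3b had 12378 and 12398 in WT and 11654 and 12026 in Mut18, and its log2 fold change of -0.07 (95% confidence interval -0.15 to 0.02) did not pass the test (edgeR adjusted p = 0.21). Counts per gene do not show the codon that a transcript carries, and reads shared with pseudogenes of both genes could be counted differently by another program.

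The libraries held 14992756 to 15143998 counts each, and all levels given here are normalized counts, that is counts per gene scaled to one library size by edgeR. Of 12 tested ESC markers 7 rose and 2 fell at an adjusted p under 0.05 (edgeR), all by less than 2-fold, with summed levels of 63507 and 66285 in WT and 70784 and 71108 in Mut18. The 2 WT libraries did not match each other at every gene. Among 14061 tested genes, 339 were more than 2-fold apart between them, 198 of these being higher in WT replicate 1, and 44 were more than 5-fold apart, of which 34 were higher in WT replicate 1. The 6 tested adipocyte markers were all in this class. Their summed level was 8341 in WT replicate 1, 611 in WT replicate 2, and 464 and 402 in Mut18, and Fabp4, a fatty acid carrier of fat cells, had 1734 and 22.5 in WT and 23 and 16.2 in Mut18. Adipoq, the defining hormone of fat cells, was not among the tested genes. Col6a1, of collagen VI, behaved alike, with 428 and 57.8 in WT and 34 and 25.3 in Mut18. Genes of this kind were not counted as changed: a gene had to be at most 2-fold apart between the WT libraries, which set aside 64 genes that were otherwise lower in Mut18, 61 of them higher in WT replicate 1, and 50 that were otherwise higher. Just inside the limit were Ghr (WT levels 2.00-fold apart) and 1700095A21Rik (1.99-fold), and just outside it were BB287469 and 4933406J08Rik (both 2.01-fold).

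**Figure D1:**
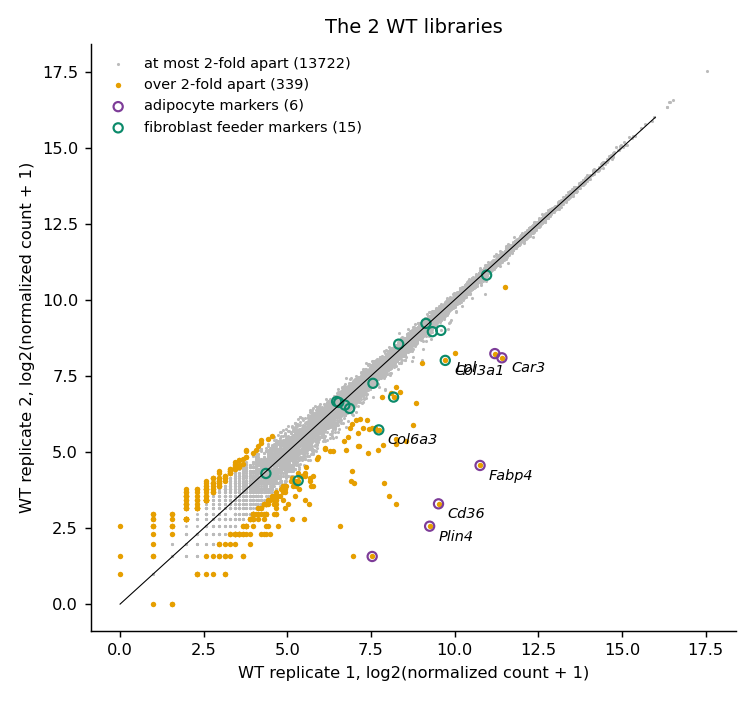
Normalized counts of the 14061 tested genes in WT replicate 1 (x axis) and WT replicate 2 (y axis), both as log2(normalized count + 1), with the line of equality. The 339 genes over 2-fold apart are orange, and the 6 adipocyte markers (purple rings) lie far to the right of the line, as do some of the 15 fibroblast feeder markers (green rings).

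Between Mut18 and WT, 342 genes were called higher and 602 lower at an adjusted p-value under 0.05 (quasi-likelihood test of edgeR, adjusted by Benjamini-Hochberg), a change of over 2-fold and WT libraries at most 2-fold apart. These are 2.43% and 4.28% of the tested genes, or 6.71% together, against 392 (2.79%) and 666 (4.74%) before the limit on the WT libraries was applied. Below, "rose" and "fell" are used for genes with an adjusted p under 0.05, and "called" for those that also passed the 2-fold limit. The median of a list, unlike these counts, is over all its tested members, also those over 2-fold apart between the WT libraries. Without the limit on the size, 2798 genes rose (19.9%) and 2886 fell (20.5%), so that small changes were common. The median size of a change was 0.22 on the log2 scale, and the 95% confidence interval lay within 2-fold for 11025 genes. Most called genes had low levels. Of 5025 tested genes with mean normalized counts from 500 to 5000, 17 were called higher and 28 lower, and of 514 above 5000, none and 1. Of the 2939 genes with a mean under 50, 209 and 338 were called.

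**Figure D2:**
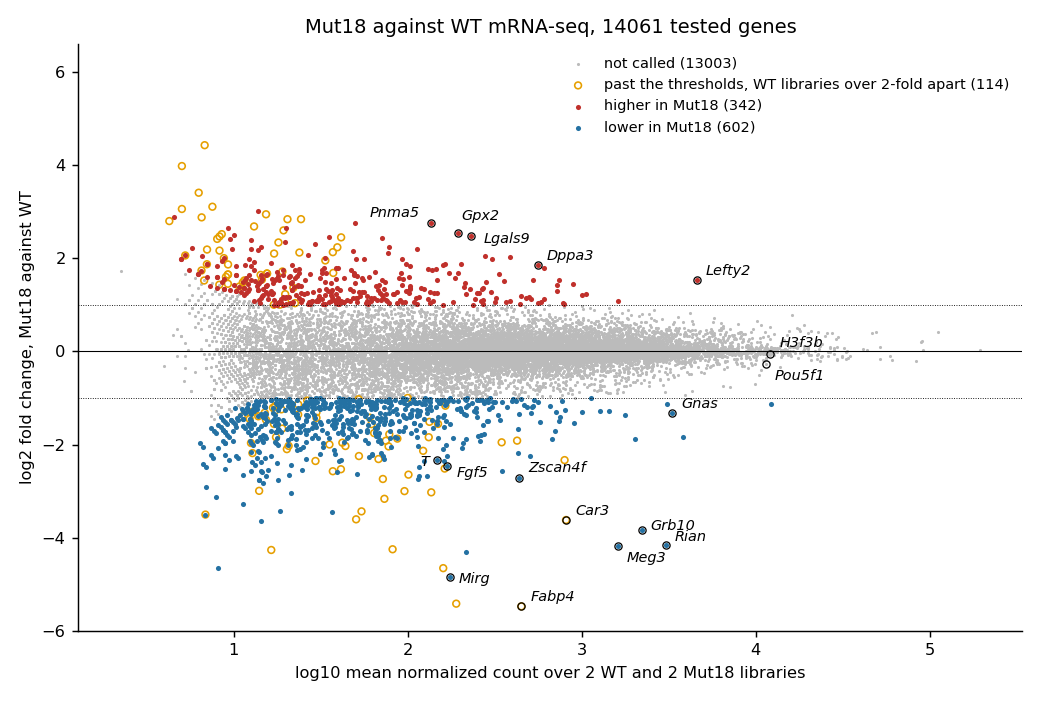
Log2 fold change of Mut18 against WT (y axis) against the log10 mean normalized count of the 4 libraries (x axis) for 14061 genes, with dotted lines at a 2-fold change. Red points are the 342 genes called higher, blue points the 602 called lower, and orange rings the 50 higher and 64 lower genes that passed both thresholds but differed over 2-fold between the WT libraries.

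The factors that hold naive pluripotency rose as a group by small amounts. Of 18 tested members, 14 rose and 1, Gbx2, fell, against backgrounds of 19.9% and 20.5%, and their median log2 fold change was 0.35, against -0.01 over all tested genes. Called were Dppa3, a maternal factor that protects DNA methylation in the zygote, and Prdm14, a repressor of the primed state. Dppa3 had 254 and 231 in WT and 934 and 812 in Mut18 (log2 fold change 1.85, SE 0.086, edgeR adjusted p = 3.77e-15), so that all Mut18 values were more than 3 times any WT value. Prdm14 had 137 and 158 in WT and 355 and 348 in Mut18 (log2 fold change 1.26, SE 0.10, edgeR adjusted p = 1.45e-10). The smaller rises included Zfp42 (Rex1), at 7710.4 and 8154 in WT and 12262 and 12546 in Mut18, Klf2, at 1969 and 2173 in WT and 3268 and 3259 in Mut18, and Tbx3, at 374 and 364 in WT and 622 and 653 in Mut18. In none of these did the groups overlap. The core factors moved little and in both directions: Pou5f1 (Oct4) fell (12092 and 12814 in WT and 10618 and 10006 in Mut18, log2 fold change -0.27), whereas Nanog (0.19) and Sox2 (0.20) rose, each by less than 2-fold.

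Genes of the primed state moved the other way. Of 13 tested, 10 fell (76.9%) and 4 of these were called (30.8%), and the median was -0.61. Over all tested genes 20.5% fell and 4.28% were called lower. Fgf5, a growth factor of the post-implantation epiblast, had 279 and 292 in WT and 51.1 and 52.6 in Mut18 (log2 fold change -2.46, SE 0.14, edgeR adjusted p = 1.57e-13), the largest fall of the list. Pou3f1 (Oct6), a transcription factor of the epiblast and early neural cells, had 1020.3 and 1169 in WT and 389 and 389 in Mut18 (log2 fold change -1.49, SE 0.078, edgeR adjusted p = 4.45e-14). Sox3 and Sall2 were the other called members, with log2 fold changes of -1.22 and -1.17. Dnmt3b, a de novo DNA methyltransferase, fell from 8836 and 9094 to 5269 and 5331, without passing 2-fold. Otx2, which starts the exit from the naive state, had 869 and 987 in WT and 876 and 814 in Mut18, and its groups overlapped. Of 10 tested mesendoderm genes, 5 fell (50%), 2 of them called (20%), and none rose. Of the 10, 5 had a mean under 50 in both lines. Among all tested genes with a mean under 50 over the 4 libraries, 11.5% were called lower. T (Brachyury), which marks the primitive streak, had 247 and 243 in WT and 50.1 and 46.5 in Mut18 (log2 fold change -2.34, SE 0.15, edgeR adjusted p = 2.13e-12), and Foxa2, of the definitive endoderm, had 10.7 and 14.7 in WT and 2.00 and 0 in Mut18.

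In the signals that govern this balance, the Nodal inhibitor Lefty2 stood out. Lefty2 had 2285 and 2407 in WT and 6744 and 6814 in Mut18 (log2 fold change 1.53, SE 0.045, edgeR adjusted p = 2.65e-19), and was the most highly expressed of the 342 genes called higher. Its neighbour and relative Lefty1 had 2282 and 2484 in WT and 2909.6 and 2899 in Mut18, with a log2 fold change of 0.29. Nodal itself, the ligand, had 662 and 702 in WT and 617 and 621 in Mut18 and did not pass the test (edgeR adjusted p = 0.116). FGF and ERK signalling drives cells out of the naive state. Among 21 tested genes of that pathway 9 fell (42.9%) and 3 rose (14.3%), none of them called, against 20.5% and 19.9% of all tested genes. The test of DESeq2 gave 6 falls and 2 rises. The median was -0.20, and -0.13 without WT replicate 2. Dusp6, a phosphatase that limits ERK, had 1801 and 1771 in WT and 967 and 996 in Mut18. Of 20 tested genes of the canonical Wnt pathway 9 fell (45%) and 5 rose (25%), and DESeq2 gave 6 and 4. Their median was -0.23, or -0.41 without the 6 on chromosome 11, which is treated below. Sp5, a direct target, was called lower (log2 fold change -2.32), as was T. Notum, a secreted inhibitor, was called higher, just past the 2-fold limit (log2 fold change 1.04). In the Hedgehog and Notch list 9 of 18 fell (50%) and 2 rose (11.1%), with 7 falls by DESeq2. The falls included the receptors Smo (-0.93) and Ptch1 (-0.52), whereas Hhip, an inhibitor of Hedgehog ligands, and Notch4 were called higher (1.23 and 1.36).

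**Figure D3:**
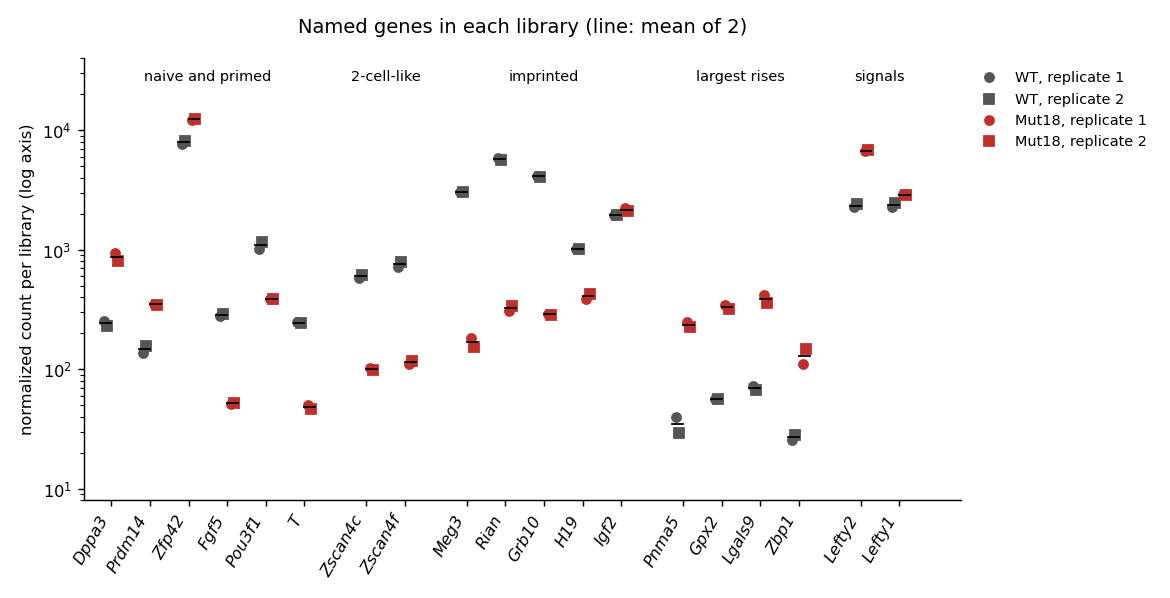
Normalized counts on a log axis of 19 named genes in each library, with WT in grey, Mut18 in red, circles for replicate 1, squares for replicate 2 and black lines for the mean of 2. Replicates sit close together, and the groups are apart for each gene shown, by the least for Igf2.

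The transcripts of the rare cells in ESC cultures that resemble the 2-cell embryo were lower in Mut18. Of 11 tested genes 9 were called lower (81.8%) and none higher, with a median of -2.35. Over all tested genes 4.28% were called lower. DESeq2 called 6 of the 11 lower, and with 1 library left out the median was -2.10 to -2.38. The summed level of the 11 genes was 2140.2 and 2191 in WT and 375 and 402 in Mut18, and 6 of them had a mean under 50 in both lines. Zscan4c, whose family protects telomeres in these cells, had 586 and 613 in WT and 102 and 98.1 in Mut18 (log2 fold change -2.58, SE 0.11, edgeR adjusted p = 1.09e-15). Zscan4f had 714 and 797 in WT and 111 and 118 in Mut18. The Zscan4 copies are near identical, so reads may be split between them, and their 5 called members are not separate evidence. Usp17la and Zfp352, of the same state, had log2 fold changes of -2.57 and -1.63 from WT levels of 25.4 and 17.6 (Usp17la) and 11.7 and 13.7 (Zfp352). A smaller share of such cells and less RNA per cell cannot be told apart in bulk RNA, here or for any gene below.

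The largest falls, at a mean of at least 50 in WT or in Mut18, were at imprinted genes, which are expressed from 1 parental copy. On chromosome 12, the noncoding RNAs of the Dlk1-Dio3 region, which are expressed from the maternal copy, were nearly lost. Meg3 (chr12:109541001-109571726) had 3048 and 3025 in WT and 182 and 155 in Mut18 (log2 fold change -4.17, SE 0.071, edgeR adjusted p = 3.93e-25). Rian (chr12:109603940-109661716) had 5861 and 5634 in WT and 307 and 339.9 in Mut18, and Mirg (chr12:109729764-109749460) had 338 and 336 in WT and 9.01 and 14.2 in Mut18. AF357359, listed with them, had 450.1 and 370.5 in WT and 25 and 16.2 in Mut18 but has no place in the annotation. The paternally expressed Dlk1, a Notch-related membrane protein, fell less (149 and 130.4 in WT and 90.1 and 81.9 in Mut18), and Dio3, a deiodinase, was low in both lines and called lower (20.5 and 20.6 in WT and 6.01 and 10.1 in Mut18). Thus 5 of 8 tested genes of this region were called lower and 7 of 8 fell, with no rise.

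At 39 tested imprinted genes elsewhere the changes went both ways, with 10 rising and 18 falling, and 8 called lower against 1 higher. Grb10, an adaptor that restrains insulin signalling, had 4163 and 4065 in WT and 290.4 and 286 in Mut18 (log2 fold change -3.83, SE 0.059, edgeR adjusted p = 4.37e-26). Its neighbour Ddc, an aromatic amino acid decarboxylase, was the called rise (289 and 293 in WT and 587 and 597 in Mut18, log2 fold change 1.02), and both lie on chromosome 11. Peg13, a noncoding RNA, had 72.3 and 62.7 in WT and 4.00 and 8.09 in Mut18. Gnas, the alpha subunit of the stimulatory G protein, had 4663 and 4809 in WT and 1921 and 1849 in Mut18 (log2 fold change -1.33, SE 0.046, edgeR adjusted p = 8.15e-18). H19, a noncoding RNA, was called lower (1011 and 1010.5 in WT and 390.5 and 428 in Mut18), whereas its partner Igf2, the fetal growth factor, had 1961 and 1939.7 in WT and 2234 and 2097 in Mut18 and a log2 fold change of 0.15. Magel2 and Ndn, of the Prader-Willi region, had log2 fold changes of -1.55 and -1.05, and Nnat and Asb4 completed the called falls (-1.08 and -1.21). Peg3 (0.05) did not pass the test.

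**Figure D4:**
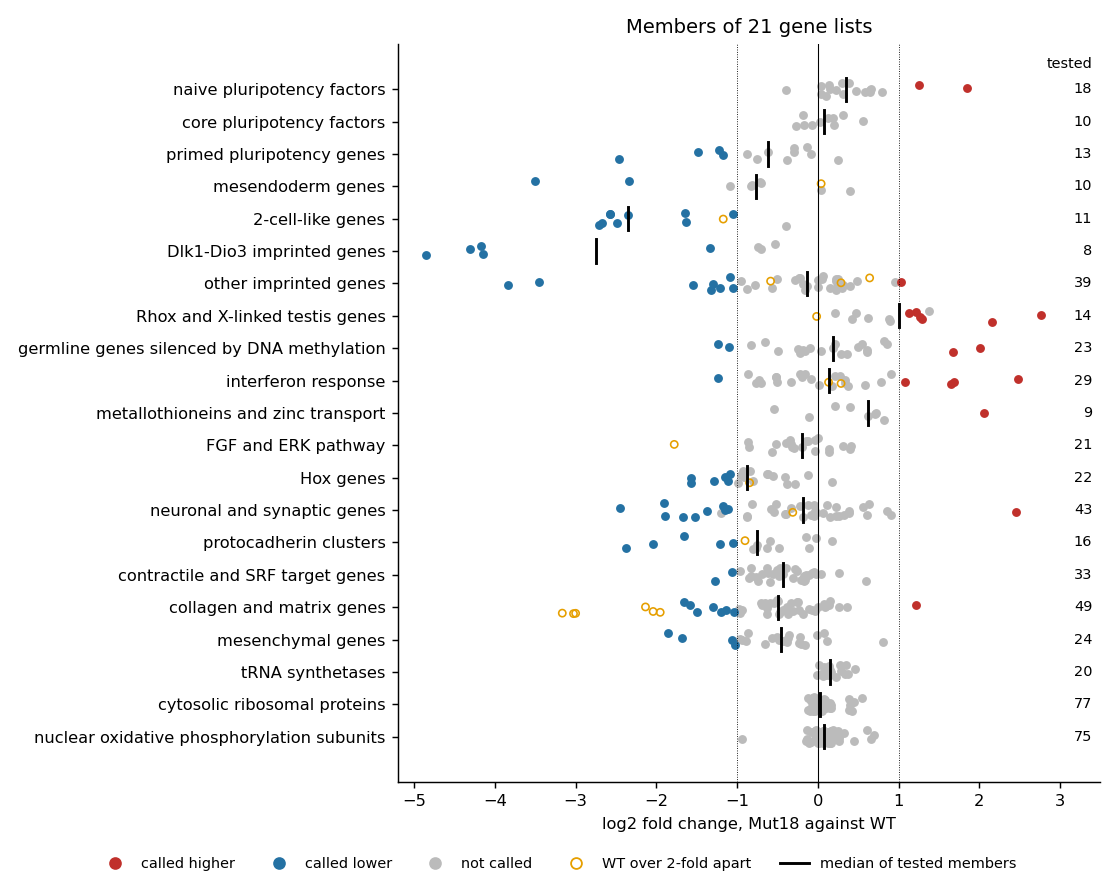
Log2 fold change of Mut18 against WT (x axis) for each tested member of 21 gene lists, with the median of a list as a black bar and its number of tested members at the right. Red and blue points passed all thresholds, and orange rings mark members over 2-fold apart between the WT libraries. The Dlk1-Dio3 and 2-cell-like lists lie far to the left, the Rhox and X-linked testis list to the right, and ribosomal and respiratory chain lists near 0.

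Several X-linked genes that are usually confined to testis and placenta rose. Of 14 tested members of the Rhox and X-linked testis list, 8 rose, 6 of them called (42.9%), and none fell, with a median of 1.01. Over all tested genes 2.43% were called higher, and 7.11% of those with a mean under 50 over the 4 libraries. Of the 14, 8 had a mean under 50 in both lines. DESeq2 gave 6 rises, 4 of them called, and the median was 0.87 to 1.08 with 1 library left out. Pnma5, a paraneoplastic antigen gene on the X chromosome, had the largest called rise at a mean of at least 50 in WT or in Mut18 (40.0 and 29.4 in WT and 247 and 225 in Mut18, log2 fold change 2.76, SE 0.16, edgeR adjusted p = 5.11e-13). Rhox6, a homeobox gene of placenta and germ line, had 22.5 and 12.7 in WT and 72.1 and 86 in Mut18 (log2 fold change 2.16, SE 0.25, edgeR adjusted p = 1.02e-07), and its relative Rhox9 had 27.3 and 28.4 in WT and 72.1 and 64.7 in Mut18. Rhox members resemble each other and may share reads. Of 23 germline genes known to be silenced by DNA methylation, 8 rose and 6 fell, with 3 falls and 1 called lower without Mut18 replicate 1, and 1 called lower without WT replicate 1. Fkbp6 and the testis tubulin Tuba3a were called higher (2.00 and 1.68), while Tdrd1, of the piRNA pathway, and Taf7l, a germ cell transcription factor subunit, were called lower (-1.10 and -1.24). Hormad2, which acts on unpaired meiotic chromosomes, went from 23.4 and 20.6 to 121 and 119 normalized counts. Tex40, a sperm gene with no place in the annotation, had 12.7 and 12.7 in WT and 93.1 and 79.9 in Mut18. In the trophoblast list 8 of 17 tested genes rose (47.1%) and 3 fell (17.6%), and 1 fell without Mut18 replicate 2. Esx1, Hand1 and the 2 Rhox genes were called higher, whereas Eomes fell (-0.81), as did Cdx2 (-0.71).

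Interferon response genes moved both ways. Of 29 tested, 10 rose (34.5%) and 8 fell (27.6%), against 19.9% and 20.5% of all tested genes. Their median was 0.13 over all of them, -0.09 over those off chromosome 11 and -0.14 without WT replicate 2. The falls were 5 without WT replicate 2 or Mut18 replicate 2 and 4 without Mut18 replicate 1, where 2 in place of 4 genes were called higher. Lgals9, a galectin that modulates T cells, had 72.3 and 67.6 in WT and 418 and 361 in Mut18 (log2 fold change 2.47, SE 0.12, edgeR adjusted p = 5.33e-15). Xaf1, Oasl1 and Isg15 were also called higher (1.69, 1.65 and 1.08), and Ddx58 (RIG-I), a sensor of viral RNA, rose from 404 and 442 to 800.0 and 779. Outside the list, Zbp1, a sensor of unusual nucleic acids, had 25.4 and 28.4 in WT and 110.1 and 147 in Mut18 (log2 fold change 2.25, SE 0.21, edgeR adjusted p = 2.05e-09), and the antiviral helicase Ddx60 had 17.6 and 22.5 in WT and 73.1 and 87 in Mut18. H2-D1, a classical class I antigen, was called lower (86.9 and 94.1 in WT and 40.0 and 36.4 in Mut18), and its partner B2m fell (694 and 515 in WT and 352 and 312 in Mut18). Lgals9 and Xaf1 lie on chromosome 11, which is treated below.

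Few stress genes passed 2-fold. Gpx2, a glutathione peroxidase of gut epithelium, had 56.6 and 56.8 in WT and 345 and 318 in Mut18 (log2 fold change 2.54, SE 0.12, edgeR adjusted p = 4.97e-15), with WT libraries that were nearly equal and both Mut18 values far above them. The 31 tested targets of the oxidative stress factor NRF2 and glutathione genes, Gpx2 included, had 8 rises and 8 falls (25.8% each), near the shares of all tested genes (19.9% and 20.5%). Nqo1 and Hmox1, well-known NRF2 targets, rose by less than 2-fold (log2 fold changes 0.70 and 0.60), and Mgst1 and Gpx8 were called lower (-1.71 and -1.08). Of 9 tested metallothioneins and zinc transporters, which bind or move metal ions, 6 rose and 1 fell. Mt1 had 1926 and 1868 in WT and 3334 and 2910.0 in Mut18, Mt2 had 3027 and 3011 in WT and 5633 and 5037 in Mut18, and the low Mt3 was called higher (7.81 and 12.7 in WT and 47.1 and 39.4 in Mut18). Of 24 targets of ATF4, the factor of amino acid stress, 11 rose and 4 fell, with 1 or 2 falls when any 1 library was left out. Asns, asparagine synthetase, had 1785 and 1747 in WT and 3067 and 3088 in Mut18. Of 29 p53 targets 16 fell (55.2%) and 4 rose (13.8%), with 12 falls by DESeq2. The called member was Gdf15, a stress cytokine, which was higher from a low level (6.83 and 7.84 in WT and 16 and 23.3 in Mut18) and was not called without WT replicate 1, without Mut18 replicate 2 or by DESeq2. Cdkn1a (p21) fell by less than 2-fold (695 and 691 in WT and 592 and 497 in Mut18), while Trp53 itself, on chromosome 11, rose (0.27). Xbp1, the transcription factor of the unfolded protein response, was the called member of 19 genes of the endoplasmic reticulum (1075 and 1001 in WT and 2243 and 2146 in Mut18) and also lies on chromosome 11.

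Hox genes, which are nearly silent in ESCs, were lower still in part. The 22 tested members, which set position along the body axis, had low levels, with a sum of 623 and 596 in WT and 395 and 387 in Mut18. Of these, 19 had a mean under 50 in both lines. Over all tested genes 4.28% were called lower, and 11.5% of those with a mean under 50 over the 4 libraries. Of the Hox genes 6 were called lower (27.3%) and none higher, with a median of -0.88. The count was 4 without WT replicate 1, 3 without WT replicate 2, 2 without either Mut18 replicate and 2 by DESeq2. In 40 other developmental transcription factors the called changes went both ways, with 4 lower (Emx2, Irx1, Prrx1 and Sox1) and 2 higher, among them Hand1. The balance turned with the library left out, with 5 lower and 1 higher without WT replicate 1 and 2 lower and 3 higher without WT replicate 2. Foxn4, a factor of the retina outside this list, had 99.6 and 117 in WT and 455 and 434 in Mut18 (log2 fold change 2.04). Hand1 lies on chromosome 11.

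Among 43 tested neuronal genes 16 fell (37.2%) and 8 rose (18.6%), against 20.5% and 19.9% of all. Nes (nestin), the intermediate filament of neural progenitors, had 2633 and 2453 in WT and 972 and 996 in Mut18 (log2 fold change -1.37, SE 0.052, edgeR adjusted p = 8.44e-17), and Kif1a, a motor for synaptic vesicles, had 1057 and 1066 in WT and 283 and 290.3 in Mut18 (log2 fold change -1.89, SE 0.089, edgeR adjusted p = 4.97e-15). Syt1, Stmn4, Dpysl4, Snap25, Nefm and Pcdh8 were also called lower, from -2.45 (Syt1) to -1.15 (Nefm). The NMDA receptor subunit Grin1 was called higher from a low level (8.79 and 12.7 in WT and 47.1 and 71.8 in Mut18), and Tubb3 and Mapt rose by less than 2-fold (0.61 and 0.90), so neuronal genes did not move as one. Of 16 tested clustered protocadherins, which give neurons their surface identity, 5 were called lower (31.2%) and none higher. Of the 16, 15 had a mean under 50 in both lines. Over all tested genes 4.28% were called lower, and 11.5% of those with a mean under 50 over the 4 libraries. The strongest fall among the protocadherins was Pcdhb17 (20.5 and 27.4 in WT and 4.00 and 5.06 in Mut18). Members of the gamma cluster share their last exons and so may share reads. In all 8 of the 16 fell. Leaving out 1 library gave 3 to 5 falls and 3 or 4 called, and DESeq2 gave 3 and 2.

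Genes of the actin cytoskeleton fell broadly and by small amounts. Of 33 tested contractile and SRF target genes, 26 fell (78.8%) and 1 rose (3.03%), against 20.5% and 19.9% of all tested genes. But 2 of the 33 were called lower (6.06%), near the 4.28% of all tested genes, and the median was -0.44. Zyx (zyxin), of focal adhesions, had 1715 and 1877 in WT and 769 and 711 in Mut18 (log2 fold change -1.28, SE 0.060, edgeR adjusted p = 4.82e-15). Tpm1, a tropomyosin, had 8140.0 and 8059.5 in WT and 4893 and 4821 in Mut18, and Flna, which cross-links actin, had 12729 and 11869 in WT and 7593 and 7569 in Mut18. By DESeq2 19 of the 33 fell. The median was -0.38 without WT replicate 1 and -0.40 to -0.47 with any other library left out.

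Matrix and mesenchymal genes were lower too, beside markers of other cells that were higher in WT replicate 1. Over all tested genes 20.5% fell and 19.9% rose, and 4.28% were called lower and 2.43% higher. Of 49 tested collagen and matrix genes 30 fell (61.2%) and 4 rose (8.16%), and 7 were called lower (14.3%) and 1 higher (2.04%). The called rise was Lama1, a laminin of the ESC basement membrane (606 and 599 in WT and 1383 and 1423 in Mut18). The called falls included Bgn (biglycan, 704 and 607 in WT and 193 and 222 in Mut18), Lox, which cross-links collagen (373 and 323 in WT and 136 and 147 in Mut18), and Fbln2 (725 and 711 in WT and 324 and 299 in Mut18). Col1a1, of collagen I, fell by less than 2-fold (1986 and 1797 in WT and 1664 and 1664 in Mut18). Of 24 mesenchymal genes 17 fell (70.8%) and 4 were called lower (16.7%). These 4 were S100a4 (125 and 145 in WT and 48.1 and 26.3 in Mut18), Cdh11 (187 and 152 in WT and 62.1 and 43.5 in Mut18), Prrx1 and Met. Cdh2 (N-cadherin) had 1014 and 999.7 in WT and 506 and 540.1 in Mut18, and Vim 5820.1 and 5354 in WT and 4237 and 4041 in Mut18. The 15 tested fibroblast feeder markers summed to 6272 and 4753 in WT and 3754 and 3700.0 in Mut18, 4 of them differed over 2-fold between the WT libraries, and 9 fell in Mut18. By DESeq2 22 of the 49 matrix genes, 14 of the 24 mesenchymal genes and 5 of the 15 fibroblast markers fell. Without WT replicate 1 the medians of these lists were -0.41, -0.38 and -0.47, against -0.50, -0.46 and -0.63 with all libraries. These medians include the members over 2-fold apart between the WT libraries, which were 6 of the 49, 0 of the 24 and 4 of the 15. Of the fibroblast markers 4 fell without Mut18 replicate 1 and 5 without Mut18 replicate 2. The part of residual feeder cells in these values was not tested.

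Genes of growth and metabolism changed little. No member was called among 77 cytosolic ribosomal proteins (median 0.02), 75 respiratory chain subunits (0.08), 31 proteasome subunits (0.07), 30 replication factors, 26 mitosis genes, 25 genes of cholesterol synthesis and 20 of glycolysis, and at an adjusted p under 0.05 without a limit on size 11, 21, 11, 10, 4, 6 and 5 of their members rose and 1, 3, 0, 1, 4, 4 and 8 fell. Small rises were common among enzymes that load tRNAs, of which 15 of 20 rose and none fell (median 0.15). Of 78 proteins of the mitochondrial ribosome 28 rose and none fell (median 0.13). DESeq2 gave 12 and 20 rises in these 2 lists. The median of the tRNA enzymes was 0.14 to 0.16 with 1 library left out. That of the mitochondrial ribosome was 0.09 without WT replicate 1, and 0.10 without its 11 members on chromosome 11. Over all tested genes 19.9% rose and 20.5% fell. These small changes depended on the library: of the respiratory chain genes 11 rose without WT replicate 1 and 8 without Mut18 replicate 1, of the ribosomal proteins 20 rose without WT replicate 2, and 3 fell without WT replicate 1. Of the cholesterol genes 3 rose without Mut18 replicate 2 and 2 fell without Mut18 replicate 1, and without WT replicate 2, 5 glycolysis and 2 mitosis genes fell. Polycomb subunits (31 tested), acetylation enzymes and readers (18) and H3.3 chaperones (9) had no called member either. Of 22 tested histone genes, the linker histone gene Hist1h1a was called higher from a low level (7.81 and 4.90 in WT and 19 and 14.2 in Mut18), but not without WT replicate 2, without either Mut18 replicate or by DESeq2.

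The remaining large changes, at a mean of at least 50 in WT or in Mut18, belong to no list. Slc15a1, a peptide transporter of the gut, had 40.0 and 40.2 in WT and 175 and 195 in Mut18 (log2 fold change 2.20, SE 0.15, edgeR adjusted p = 9.95e-12). Myo1g, a myosin of blood cells, had 24.4 and 33.3 in WT and 118 and 131 in Mut18 (log2 fold change 2.11, SE 0.19, edgeR adjusted p = 1.31e-09). The epithelial keratin Krt17 had 165 and 141 in WT and 612 and 634 in Mut18, and Aldh3a1, an aldehyde dehydrogenase of the cornea, had 21.5 and 23.5 in WT and 88.1 and 91 in Mut18. Of the falls, Calcr, the calcitonin receptor, had 215 and 183 in WT and 37 and 22.3 in Mut18 (log2 fold change -2.74, SE 0.20, edgeR adjusted p = 3.31e-11), Cyp2b23, a cytochrome P450, had 209.9 and 193 in WT and 37 and 25.3 in Mut18, Slc35f1 had 87.9 and 88.2 in WT and 18 and 10.1 in Mut18, and Apba2, an adaptor of synapses, had 61.5 and 72.5 in WT and 11 and 11.1 in Mut18. In all of these the libraries of the lines were apart, as they were by the rule for the genes of largest change.

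One chromosome differed from the others. The 1182 tested genes of chromosome 11 had a median log2 fold change of 0.38, or 1.30-fold, and 83.3% of them were above 0, whereas the medians of the other autosomes were between -0.08 and 0.06. The rise ran along the whole chromosome, with medians from 0.32 to 0.40 in 7 windows of 20 Mb. Chromosome 11 gave 11% and 11.1% of the normalized counts of tested genes in WT and 13.8% and 13.7% in Mut18. It held 78 (22.8%) of the genes called higher but 8.41% of the tested genes, and 38 of the 78 were over 2-fold above the median of the chromosome. The genes named above that lie there include Lgals9, Hormad2, Myo1g, Krt17, Aldh3a1, Xaf1, Ddc, Hand1, Mapt, Trp53 and Xbp1, and also H3f3b, Grb10 and Col1a1, which did not rise. Off chromosome 11, 264 of 12879 genes were called higher (2.05%) and 590 lower. In Mut43, which was compared with the same WT libraries, the median of the chromosome was 0.38. A change in copy number and other causes cannot be told apart with these counts. All 7 tested genes of the Y chromosome had a log2 fold change above 0. Kdm5d, a histone demethylase, and Uba1y, a ubiquitin-activating enzyme, were called higher (8.79 and 11.8 in WT and 32 and 37.4 in Mut18 for Kdm5d and 88.8 and 94.1 in WT and 298 and 292 in Mut18 for Uba1y), and Ddx3y, an RNA helicase, rose by less than 2-fold (1183 and 1133 in WT and 1710.1 and 1865 in Mut18). Zfy1 was over 2-fold apart between the WT libraries, and Gm20736 did not pass the test. The X chromosome had a median of -0.13.

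**Figure D5:**
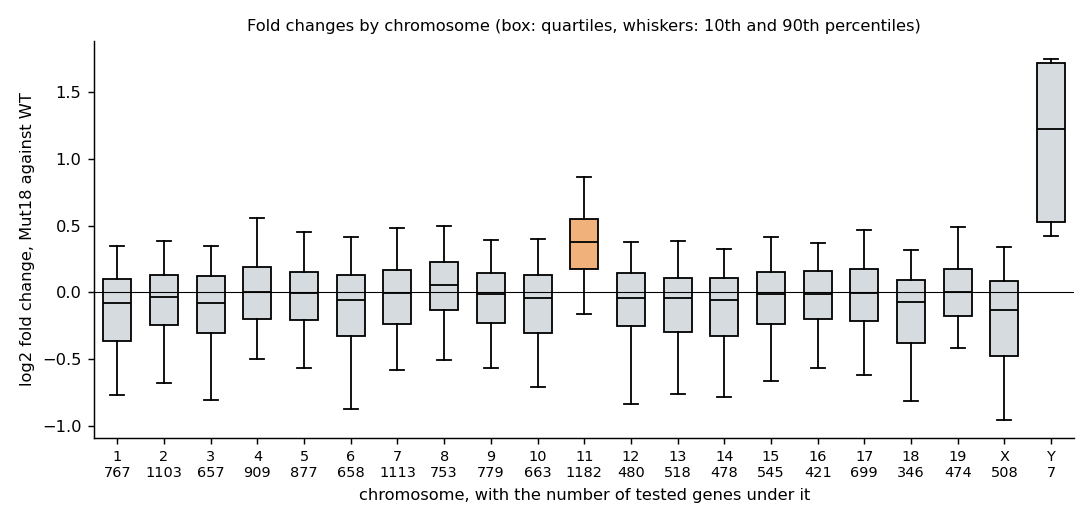
Log2 fold change of Mut18 against WT (y axis) by chromosome (x axis, with the number of tested genes), where boxes are quartiles with the median and whiskers the 10th and 90th percentiles. Chromosome 11 (orange) has a median of 0.38 and the Y chromosome, with 7 genes, one of 1.22, while the other medians lie between -0.13 and 0.06.

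The promoters of the called genes differed in CpG content from those of other genes. CpG-rich promoters are typical of widely expressed and developmental genes, and CpG-poor ones of tissue-specific genes that are often methylated. Over 250 bases upstream of the start site in GRCm38, the ratio of observed to expected CpG had a median of 0.294 for the genes called higher (336 of 342 had a sequence), 0.551 for those called lower (596 of 602) and 0.693 for all tested genes (13933). A ratio under 0.5 was found for 72.9%, 43.3% and 28.6%. Low expression goes along with few CpGs, so the shares were also read at like levels. At WT means under 50, 77.6% of the genes called higher and 49.6% of those called lower had a ratio under 0.5, against 54.1% of all, and at WT means from 50 to 500 these were 59.2%, 36.6% and 28.2%. These shares are descriptions without a test. On both strands of the same window, a GAAA followed after any 2 bases by another GAAA, the core of the interferon-stimulated response element, was in 6.25% of the genes called higher, 2.85% of those called lower and 2.58% of all. TATAAA was in 13.1%, 9.9% and 6.82%, and CCAAT in 30.4%, 31.9% and 35.9%.

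The 250 bases upstream of the start site (RefSeq, GRCm38.p6) are given for 5 genes that show these features, written 5′ to 3′ in the direction of the gene with the searched motifs of either strand in capitals. Gpx2 (chr12:76795555-76795804, minus strand) has no CpG at all, and Myo1g (chr11:6520959-6521208, minus strand) has 2. Ddx60 (chr8:61927837-61928086, plus strand) holds 2 interferon response cores. Fgf5 (chr5:98253934-98254183, plus strand), which fell, has 24 CpGs. Meg3 (chr12:109540746-109540995, plus strand), which was nearly lost, has 10 CpGs and overlapping TATA matches close to its start.
Gpx2: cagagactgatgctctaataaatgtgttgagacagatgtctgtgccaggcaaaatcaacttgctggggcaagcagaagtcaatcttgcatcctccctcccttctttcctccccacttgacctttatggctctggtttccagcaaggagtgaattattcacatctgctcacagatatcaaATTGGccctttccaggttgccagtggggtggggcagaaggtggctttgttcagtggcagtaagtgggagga
Myo1g: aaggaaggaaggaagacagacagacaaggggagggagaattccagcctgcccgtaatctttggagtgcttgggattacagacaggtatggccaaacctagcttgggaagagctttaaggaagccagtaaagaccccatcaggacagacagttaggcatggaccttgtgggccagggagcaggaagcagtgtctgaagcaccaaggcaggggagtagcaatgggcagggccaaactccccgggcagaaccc
Ddx60: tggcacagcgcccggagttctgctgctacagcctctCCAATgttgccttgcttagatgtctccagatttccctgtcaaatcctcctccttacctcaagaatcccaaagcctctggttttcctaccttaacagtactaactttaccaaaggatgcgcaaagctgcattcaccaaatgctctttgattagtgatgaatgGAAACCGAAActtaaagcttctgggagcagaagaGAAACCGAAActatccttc
Fgf5: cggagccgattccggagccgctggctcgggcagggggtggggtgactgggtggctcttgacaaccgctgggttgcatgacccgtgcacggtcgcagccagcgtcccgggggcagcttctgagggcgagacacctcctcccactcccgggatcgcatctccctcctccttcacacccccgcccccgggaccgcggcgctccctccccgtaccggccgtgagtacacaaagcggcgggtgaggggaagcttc
Meg3: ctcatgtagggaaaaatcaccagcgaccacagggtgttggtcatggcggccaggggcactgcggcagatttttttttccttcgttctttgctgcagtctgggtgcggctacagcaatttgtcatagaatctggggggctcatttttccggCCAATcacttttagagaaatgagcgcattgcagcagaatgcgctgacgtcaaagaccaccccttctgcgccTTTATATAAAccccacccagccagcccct
A match to a motif is a description and does not show that a factor binds there.

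ATAC-seq, which maps open chromatin, was available for the same lines as lists of peaks in 2 libraries each. The authors called 78539 and 67419 peaks in WT and 63591 and 69814 in Mut18, and a promoter was taken as open if a peak lay within 1000 bp of a start site. Of the genes called higher, 57.7% had such a peak in all 4 libraries and 28% in none. Of those called lower, 77.9% had it in all 4 and 12.2% in none, against 89.2% and 5.38% of all 13937 placed tested genes. Called genes were more often at low levels. A mean under 50 was found for 209 of the 342 higher and 338 of the 602 lower genes, and for 2939 of 14061 tested. The shares with a peak were not read at like levels, so a part of the level in them was not tested. A peak in both Mut18 libraries and neither WT library was found at 13 promoters (0.0933%), of which 6 belonged to genes called higher and none to genes called lower. These were Myo1g, the drug transporter Abcc2, the testis antigen Fmr1nb, Arl14epl, Arhgap27os3 and Gm11413, named after their values were seen. The median log2 fold change over the 13 genes was 1.12. The reverse, a peak in both WT libraries and neither Mut18 library, was found at 127 promoters (0.911%), with 14 genes called lower and 3 higher and a median of -0.17. Meg3 and Peg13 were among the 14, with Cdh11, S100a4 and the gap junction gene Gja1, and Zbp1 was among the 3, against the direction of its RNA. Mut18 replicate 1 had the fewest peaks, and the peak lists carry no read depth, so that a missing peak is not a closed promoter. Grb10, Lefty2 and Ddx60 had a promoter peak in all 4 libraries, and Lgals9, Pnma5, T and Zscan4c in none.

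Against the second clone, 46 genes differed between Mut18 and Mut43 at an adjusted p under 0.05 by the same edgeR test (0.327%). Of the 944 genes called in Mut18, 5 were among them, and all of these fell in both clones and further in Mut43. Car2, a carbonic anhydrase, had 5935 and 6066 in WT and 1678 and 1663 in Mut18 and 1257 and 1229.9 in Mut43 (log2 difference between the clones 0.43, edgeR adjusted p = 2.33e-05). Fndc3c1 had 1065 and 1077 in WT and 325 and 327 in Mut18 and 223 and 221 in Mut43. Gnas, Nes and Zyx had 1501 and 1512, 796 and 795 and 549 and 545 in Mut43, below their Mut18 values given above. None of the 15 largest rises and 15 largest falls passed the test of a difference between the clones, and Pnma5 came nearest (edgeR adjusted p = 0.0658). Pnma5 passed it with a minimum count of 50, with the replicate block, and without either WT replicate. Both clones were compared with the same 2 WT libraries, so that their values stand side by side only. Meg3 had a log2 fold change of -4.17 in Mut18 and -4.32 in Mut43, Grb10 -3.83 and -4.15, Fgf5 -2.46 and -2.71, Dppa3 1.85 and 1.85, Gpx2 2.54 and 2.78, and Pnma5 2.76 and 2.23.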

How the data were processed

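Total RNA was sequenced as paired-end mRNA-seq libraries on an MGI sequencer. The authors deposited 1 table of raw read counts per gene symbol (16263 rows) for WT, Mut18 and Mut43. The reference was mm10 joined to dm6, and the submitters' processing notes name STAR, SAMtools and DESeq2 without a role. The counting program and the annotation are not given in the sources used here. The authors also deposited ATAC-seq peak lists, called per library, with a −log10 q-value for each peak, for which the notes name Bowtie2 2.3.4.2, SAMtools, deepTools 3.3.0 and MACS2.

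Counts were fitted in edgeR 4.0.16 (R 4.3.3) with TMM factors, a filter on low counts (minimum count 10, minimum total 15) and line as the only term over all 6 libraries, which share 1 estimate of the spread. The quasi-likelihood F-test was adjusted by Benjamini-Hochberg over 14061 genes. Totals were 14992756 to 15143998 counts, so that depth was nearly equal between libraries, and intervals cover the spread between these libraries. A call needed an adjusted p under 0.05, a change over 2-fold and WT libraries at most 2-fold apart. DESeq2 1.42.0, other scalings and filters, and libraries left out in turn were alternatives. Code was tested on simulated data.

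Positions come from GENCODE and RefSeq annotation of GRCm38: 15618 symbols matched directly and 477 as synonyms, 26 were ambiguous and 142 had no place. The table holds no mitochondrially encoded gene, and 24 symbols had turned into dates. The members and the gene lists were chosen with earlier results of these data known. Genes named are the edited genes, the 15 largest rises and 15 largest falls with a mean of at least 50 in WT or in Mut18 (so that some passed through the line in which they are high) and libraries apart, the called (up to 5, by size) and best known members of each list, called genes that differ from Mut43, and those next to the WT limit. Others were named after their values were seen.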

Additional observations from a re-analysis of the deposited data

Results flagged for a closer look

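Each of the following genes differed between the 2 mutant clones by the edgeR test of the difference itself. The values are log2 differences of Mut18 minus Mut43, from 2 libraries each. Over all tested genes 46 differed (0.327%). In the contractile list 8 of 33 members did, in the matrix list 5 of 49 and in the mesenchymal list 3 of 24, all of them higher in Mut18. Those named in the text are Acta2 at 0.62, Zyx at 0.44, Tagln at 0.38, Tpm1 at 0.20, Vim at 0.34, Cdh2 at 0.39 and Col1a1 at 0.41. Of 39 imprinted genes outside the Dlk1-Dio3 region 4 differed, all higher in Mut18, with Cdkn1c at 0.37, Igf2 at 0.35, Peg3 at 0.34 and Gnas at 0.32. The neural genes Map2 and Nes differed by 0.66 and 0.31, and Car2 and Fndc3c1 by 0.43 and 0.55. Tbx3, a naive factor, and H3f3b, one of the edited genes, were lower in Mut18 than in Mut43, by -0.38 and -0.19. The adjusted p-values ran from 1.09e-05 for Acta2 to 0.0402 for H3f3b (edgeR). Groups of 2 libraries are too small to test for a library far from the others.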

How the results depend on the processing

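The counts of 342 higher and 602 lower genes were 347 and 599 with DESeq2 size factors, 317 and 654 with total counts, 367 and 583 with TMM factors from genes off chromosome 11, 361 and 639 without a filter and 340 and 601 from the 4 libraries alone. DESeq2's own test gave 243 and 433. A minimum count of 50 gave 174 and 323 among 11363 genes tested, a 1.5-fold threshold 820 and 1264, and no fold threshold 2798 and 2886. Without the limit on the WT libraries they were 392 and 666, and with WT libraries at most 1.5-fold apart 288 and 562. Leaving out 1 library gave 280 to 312 higher and 518 to 626 lower genes. Replicate numbers did not pair the samples (correlations of deviations -0.012 to 0.024), and a replicate block gave 337 and 597.

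The median of chromosome 11 was 0.34 with total counts, 0.40 with TMM factors from genes off chromosome 11 and 0.40 without WT replicate 2 (0.36 to 0.40 over libraries left out). A promoter peak in every library was found for 69% of the genes called higher within 2500 bp, and for 72.7%, 81.7% and 73.8% of those called lower within 500 bp, within 2500 bp and with a −log10 q of at least 10. Of the called genes, 5 differed between the clones, and 1 to 8 with a library left out: 8 without WT replicate 1, 3 without Mut18 replicate 2 and, without Mut18 replicate 1, Car2 alone. The cause was not tested.

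Alternatives for the clone difference and the list counts with a library left out or by DESeq2 were chosen after seeing the data. Over 177 single genes and these alternatives, 1966 of 2079 values stayed on the same side of the threshold on the adjusted p. Of the others, 110 were no longer past it, 3 came past it and 0 were classed as reversed. A change of sign in a value that passed in neither fit was not classed as reversed. The 2-fold limit of a call was not part of these classes, so a lost call is not counted in them. Of the 342 higher and 602 lower genes, DESeq2's own test kept 239 and 433. Without WT replicate 1 the median log2 fold change of the 6 adipocyte markers was -0.11, against -4.14 with both WT libraries. Genes with few counts and groups of 2 libraries limit the precision.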

Other observations

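A set of 14 gene families was grouped after their values were seen, so their counts have no test. Over all tested genes 2.43% were called higher and 4.28% lower. Of 27 tested semaphorins and plexins, which guide axons and cells, 8 were called lower and none higher, with a median log2 fold change of -0.30. Sema6a, a membrane semaphorin, had 675 and 740.0 in WT and 159 and 152 in Mut18 (log2 fold change -2.18, SE 0.092, edgeR adjusted p = 5.78e-16). Of 7 tested GABA receptor subunits 5 were called lower and none higher (median -1.15). Of 4 tested SLIT and NTRK-like proteins, which act at synapses, 3 were called lower, and of 15 ADAMTS proteases, which cut the matrix, 4 were, while 3 of these 15 were over 2-fold apart between the WT libraries. Cadherins (3 of 12), carbonic anhydrases (3 of 12), thrombospondins (2 of 4), ephrins and Eph receptors (2 of 18) and S100 proteins (1 of 7) also had called members on the lower side alone. Potassium channels (3 higher and 6 lower of 39), NLR proteins (2 and 1 of 9) and Platr noncoding RNAs (2 and 1 of 11) went both ways.

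Keratins, the filaments of epithelia, went the other way, with 4 of 14 called higher and none lower. These were Krt9, Krt13, Krt17 and Krt42, which all lie on chromosome 11. The Schlafen genes Slfn8 and Slfn9, called higher out of 4 tested, lie there as well.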
